A study of Mus musculus with 5 samples.

Results

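The genes described here are Sox7, Sox17 and Sox18, the 3 members of the SoxF group, and the measurement is DNaseI-seq, which lists the stretches of chromatin that the nuclease DNaseI cuts readily (DNaseI hypersensitive sites, DHSs). A DHS was taken as a member if it lay within 1 kb of any annotated transcription start site (TSS) of one of these genes, or if the gene was the nearest protein-coding gene and the site lay inside it or up to 100 kb from its TSS. This gave 24 of the 135173 sites in the 5 lists, 13 at Sox7, 9 at Sox17 and 2 at Sox18. Once the sites of all stages were set to 500 bp around the middle of each interval and merged by the overlap that the methods of the study state, the 24 sites formed 14 of 68846 merged regions. The comparison set of genes was the 21000 protein-coding genes with a curated RefSeq mRNA.

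The cells came from 1 mouse embryonic stem cell line of strain 129 in which GFP reports Brachyury (Bry), a gene of early mesoderm, differentiated in culture and sorted at 5 stages. Mesoderm (MES) was Bry.GFP+ and FLK1-, and hemangioblasts (HB), a precursor of endothelium and blood, were Bry.GFP+ and FLK1+. Hemogenic endothelium (HE), the endothelium from which blood cells emerge, was Bry.GFP+, Tie2+/Ckit+ and CD41-, hematopoietic progenitors (HP) were CD41+, and macrophages (MAC) were CD11b+. Each stage was represented by 1 list of sites, so n = 1 throughout, no replicate error could be given and no test between stages was made. The MAC label names replicates 1 and 2 together, and how they were combined is not given in the sources used here.

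SoxF proteins are transcription factors that bind DNA through an HMG box. They are known for their roles in endothelial and arterial identity, in which they act beside ETS factors and the Notch pathway. In blood development they mark the hemogenic endothelium, and their levels are known to fall as blood cells emerge. Sox7 is known as an early member of the group in vascular and hemangioblast precursors, Sox17 for its roles in endoderm and in arterial and hemogenic endothelium, and Sox18 for its roles in vascular and lymphatic development.

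From MES to MAC, in the order of the stages above, the lists held 21949, 24729, 33305, 17734 and 37456 sites, with median widths of 800, 900, 1200, 900 and 600 bp. The HE list thus had the widest sites and covered the most sequence, 40.6 Mb against 15.4 to 23.2 Mb in the others. The deposited lists give positions and no read counts, so the depth behind a site is unknown and where no site is listed the chromatin may still have been open. The genes of the sorting markers were checked by their promoter sites. T, which encodes Brachyury, had one in MES and HB, Tek (Tie2) in HE, Kit in every list but MAC, Itga2b (CD41) in HE and HP, and Itgam (CD11b) in MAC. Kdr (FLK1) had one in all 5 lists, and the site at Itga2b in HE stands beside a sort for CD41- cells.

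The sequences of 6 regions are shown for the main contrasts below, namely 5 of the regions listed in HE (4 of them over 1 kb from any TSS, and the Sox18 promoter site, whose printed stretch lies inside the gene), and the MAC region of Sox7 that lies closest to an HE site. The central 300 bp of each is given from RefSeq's GRCm38.p6 (mm10), on the plus strand, 5′ to 3′, in lower case. Capitals mark exact matches, on either strand, to short words of the kind that known families of factors bind. For SOX factors the letters searched were ACAAT and, as the other form, ACAAAG. For ETS factors they were CCGGAA and, as the other form, AGGAAG. The letters of GATA factors were AGATAA, those of TEAD factors CATTCC and those of RUNX factors TGTGGT. The E-box, which basic helix-loop-helix factors bind, was searched as CAGATG and, in its other form, CAGCTG. FOX factors were searched as TGTTTAC and RBPJ, the DNA-binding partner of Notch, as TGGGAA. Distances are from the curated TSS, negative upstream and positive downstream in the direction of the gene.
Sox7 −34.9 kb (HB, HE and HP), chr14:63908624-63908923: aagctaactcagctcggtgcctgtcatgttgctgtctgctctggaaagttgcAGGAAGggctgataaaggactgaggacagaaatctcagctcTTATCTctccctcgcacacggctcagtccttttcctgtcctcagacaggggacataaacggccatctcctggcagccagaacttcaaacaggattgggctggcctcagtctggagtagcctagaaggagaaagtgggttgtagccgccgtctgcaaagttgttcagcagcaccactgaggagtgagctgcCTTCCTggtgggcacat
Sox7 −33.3 kb (MAC), chr14:63910279-63910578: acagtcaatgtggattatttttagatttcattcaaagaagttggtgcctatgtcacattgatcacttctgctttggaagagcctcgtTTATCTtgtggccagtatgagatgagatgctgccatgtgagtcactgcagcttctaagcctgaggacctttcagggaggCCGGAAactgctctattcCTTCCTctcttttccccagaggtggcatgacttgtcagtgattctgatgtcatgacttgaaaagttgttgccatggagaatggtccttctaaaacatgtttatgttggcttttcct
Sox7 +19.2 kb (HE), chr14:63962758-63963057: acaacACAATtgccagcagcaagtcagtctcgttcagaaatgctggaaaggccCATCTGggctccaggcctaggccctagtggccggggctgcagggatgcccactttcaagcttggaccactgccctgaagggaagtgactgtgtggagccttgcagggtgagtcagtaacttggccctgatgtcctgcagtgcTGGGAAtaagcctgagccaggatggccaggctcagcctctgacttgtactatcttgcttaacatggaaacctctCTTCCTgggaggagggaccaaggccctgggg
Sox17 +4.46 kb (HE window, its right end also inside the HB site), chr1:4492741-4493040: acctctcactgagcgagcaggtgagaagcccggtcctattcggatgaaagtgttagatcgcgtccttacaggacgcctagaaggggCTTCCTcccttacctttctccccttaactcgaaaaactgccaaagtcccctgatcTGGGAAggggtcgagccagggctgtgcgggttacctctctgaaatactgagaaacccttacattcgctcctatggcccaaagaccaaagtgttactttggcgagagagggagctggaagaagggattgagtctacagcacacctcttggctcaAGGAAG
Sox17 −74.4 kb (MES, HB and HE), chr1:4571651-4571950: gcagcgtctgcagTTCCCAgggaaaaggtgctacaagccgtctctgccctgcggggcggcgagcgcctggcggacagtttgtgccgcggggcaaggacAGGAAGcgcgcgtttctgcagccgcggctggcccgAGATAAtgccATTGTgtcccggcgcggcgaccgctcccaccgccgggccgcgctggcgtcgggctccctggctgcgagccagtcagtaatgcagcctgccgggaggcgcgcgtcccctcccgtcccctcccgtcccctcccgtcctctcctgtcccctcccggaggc
Sox18 +0.771 kb (HE), chr2:181670720-181671019: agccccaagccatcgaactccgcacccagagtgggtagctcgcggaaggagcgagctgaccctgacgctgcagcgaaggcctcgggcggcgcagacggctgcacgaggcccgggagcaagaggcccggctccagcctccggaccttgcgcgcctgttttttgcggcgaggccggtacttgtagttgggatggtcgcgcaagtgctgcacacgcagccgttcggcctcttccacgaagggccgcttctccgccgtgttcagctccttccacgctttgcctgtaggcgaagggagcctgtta

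All 3 SoxF genes had a promoter site, that is a listed site within 1 kb of a TSS, in HE. In HB it was 2 of the 3 (Sox7 and Sox17), in HP 1 (Sox17), and in MES and MAC 0. The HE promoter sites were 1400 to 2000 bp wide and those of HB and HP 500 to 800 bp, so that with sites under the median width of each list dropped, HE had 3 genes and every other stage 0. No share of all genes was computed under that cut, and the shares given next are for the full lists. Over all 21000 genes the share with a promoter site was highest in HE at 61.7%, and it was 58.9% in HB, 57.2% in MES, 50.2% in MAC and 50.1% in HP, so a promoter site in HE is common and 3 of 3 is to be read against that background. The 95% Wilson interval of the HE share was 61.0 to 62.3%, which covers counting error over genes only. A promoter site in HE together with none in MES and none in MAC was seen at 3 of 3 SoxF genes and at 5.20% of all genes (1091), a combination that was chosen after the values were seen. With a promoter reach of 2 kb it held for 2 of the 3, since Sox17 then also had a promoter site in MES. By exact pattern, the combination of HB and HE at Sox7 was shared by 1.37% of genes (287 of them), that of HB, HE and HP at Sox17 by 0.4% (84), and HE by itself at Sox18 by 3.09% (649). Most genes had a promoter site in all 5 lists (43.4%) or in none (32.4%), and each of the other patterns held at most 3.96%, so any pattern between these is uncommon.

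Counting every assigned site, promoter or not, gave 8 sites in HE, 6 in HB, 4 in MAC and 3 each in MES and HP. At least 1 site was listed at all 3 genes in HE, at 2 of the 3 in MES, HB and HP, and at 1 in MAC. The shares of all genes with at least 1 site, from MES to MAC, were 65.7%, 67.4%, 71.1%, 58.5% and 66.5%, so presence of any site did not set the SoxF genes apart in HE. From MES to MAC, Sox7 had 0, 3, 4, 2 and 4 sites. Sox17 had 2, 3, 3, 1 and 0 in the same order, and Sox18 had 1 in MES and 1 in HE. The 4 HE sites of Sox7 were reached by 10.4% of all genes, the 3 of Sox17 by 18.2% and the 1 of Sox18 by 71.1%, against a median of 1.

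HE also had the most covered sequence, and by a larger factor than in the number of sites. Together the 3 genes had 11900 bp of listed sequence in HE, against 4300 bp in HB, 2000 bp in HP, 1800 bp in MAC and 1600 bp in MES. The HE list is the longest in base pairs, so each length was also divided by the covered length of its own list. Per Mb of list, from MES to MAC, the values were 93.9, 185, 293, 130 and 79.1 bp, and HE was again the highest, while the lowest was MAC in place of MES. For Sox7 by itself this relative length was 0, 81.8, 141, 97.6 and 79.1 bp per Mb in the same order. For Sox17 it was 76.3, 103, 118 and 32.5 bp per Mb from MES to HP and 0 in MAC.

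**Figure D1:**
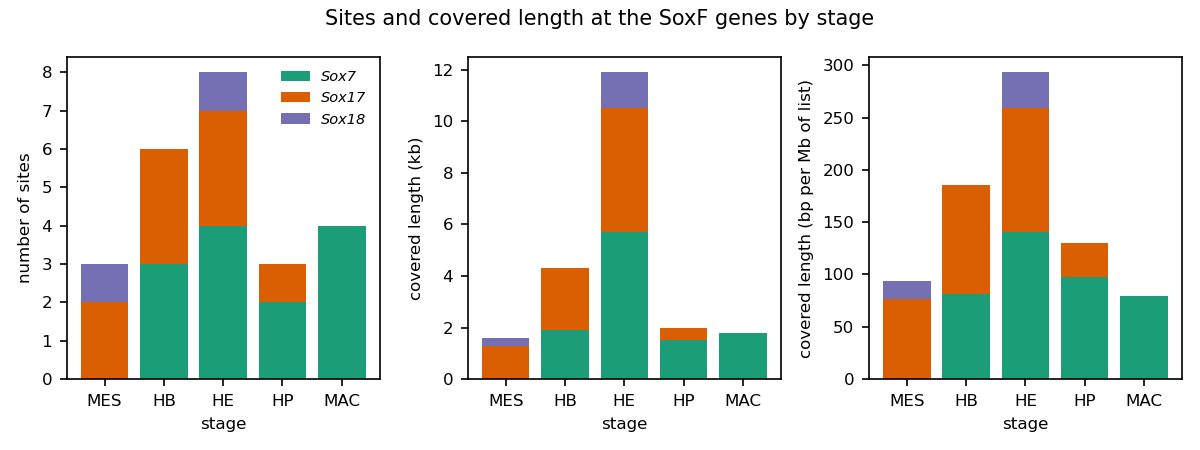
Number of listed sites, covered length in kb and covered length in bp per Mb of the stage's list, stacked by gene, for the 5 stages (1 list each, no error bars). HE is highest on all 3 axes, with 8 sites, 11.9 kb and 293 bp per Mb, and the MAC bars hold Sox7 only.

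Sox7 lies on the plus strand at chr14:63943706-63950732, with 1 annotated TSS. Its promoter had a site of 500 bp in HB (chr14:63943286-63943785) and of 2000 bp in HE (chr14:63942258-63944257). The TSS lay inside both. The HE interval was wider than 96% of the HE list and 4 times the width of the HB interval, which was itself wider than only 7.84% of the HB list. No promoter site of Sox7 was listed in HP.

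Upstream, at −34.9 kb in an intron of the neighbouring gene Pinx1, a site was listed in HB (800 bp), HE (1600 bp) and HP (700 bp). A second shared site lay downstream of the gene at +14.3 kb between genes, with widths of 600, 1400 and 800 bp in the same order. Both distal sites were thus listed in HP, where the promoter had none. At +19.2 kb a site of 700 bp was listed in HE alone. That one was among the narrow sites of its list, wider than 9.85% of it.

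The 4 MAC sites of Sox7 were all upstream and at positions where no other list had a site. They lay at −40.4, −39.6, −33.3 and −21.1 kb, with widths of 200, 500, 800 and 300 bp. The first 3 lay in introns of Pinx1, as the −34.9 kb site did, and the one at −21.1 kb between the genes. The 800 bp site at −33.3 kb came within 471 bp of the HE site at −34.9 kb without touching it. None of the 4 overlapped an HE site, against 41.9% of all MAC sites that did. That share includes promoter sites, while these 4 were all distal, and no share was computed for distal MAC sites. The TSS of Sox7 was the nearest one, at 40.4 kb or less against 43.0 kb or more for the next gene, and which gene these sites act on was not tested. With sites given to the nearest gene body instead of the nearest TSS, Sox7 had 0 MAC sites and 2 HE sites, the promoter and +14.3 kb. That alternative was chosen for the MAC sites after the data were seen.

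**Figure D2:**
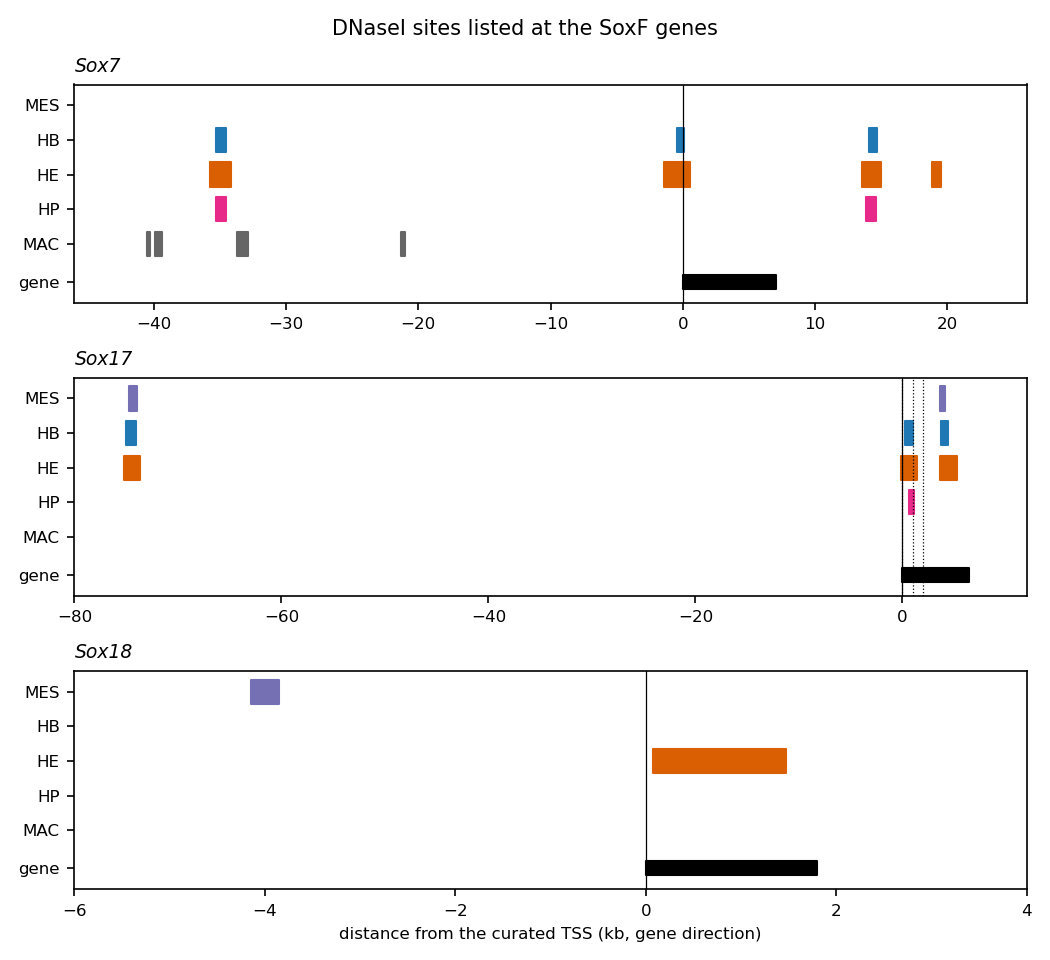
Listed sites of the 5 stages (coloured bars, to scale) at Sox7, Sox17 and Sox18, by distance from the curated TSS in kb along the gene's direction, with the gene body in black, the curated TSS as a solid line and predicted ones dotted. HB, HE and HP sites stack at −34.9 and +14.3 kb of Sox7, the 4 MAC sites stand apart from them, and the −74.4 kb site of Sox17 is shared by MES, HB and HE.

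Sox17 lies on the minus strand at chr1:4490928-4497426, with 1 curated TSS and 3 predicted ones. Its promoter site was 1600 bp wide in HE, 800 bp in HB and 500 bp in HP. The HE interval (chr1:4495941-4497540) held 3 of the 4 TSS, the curated one included. The HB and HP intervals each held 1, the predicted TSS at +0.981 kb, and ended 207 bp and 596 bp short of the curated one. The sites of HB and HP thus lay over the first exon and did not reach the curated start.

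Inside Sox17, sites lay over the intron and coding exon around +4 kb, with a width of 1700 bp in HE (chr1:4492041-4493740), 700 bp in HB and 500 bp in MES. The HE interval contained both others but was centred further into the gene, at +4.46 kb. Because of this the 500 bp windows separated into a region in HE alone and a region in MES and HB, while the deposited intervals formed 1 region of all 3 stages. Nothing was listed there in HP or MAC.

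The distal site of Sox17 at −74.4 kb, in an intron of the gene model Gm37323, was 1500 bp wide in HE, 900 bp in HB and 800 bp in MES, with none listed in HP or MAC. Of all places described here it lay farthest from its gene, and Sox17 was still the nearest curated TSS, as Rp1, the nearest gene on the other side of Sox17, starts 88.1 kb beyond it and Mrpl15 lies 288 kb upstream of Sox17.

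**Figure D3:**
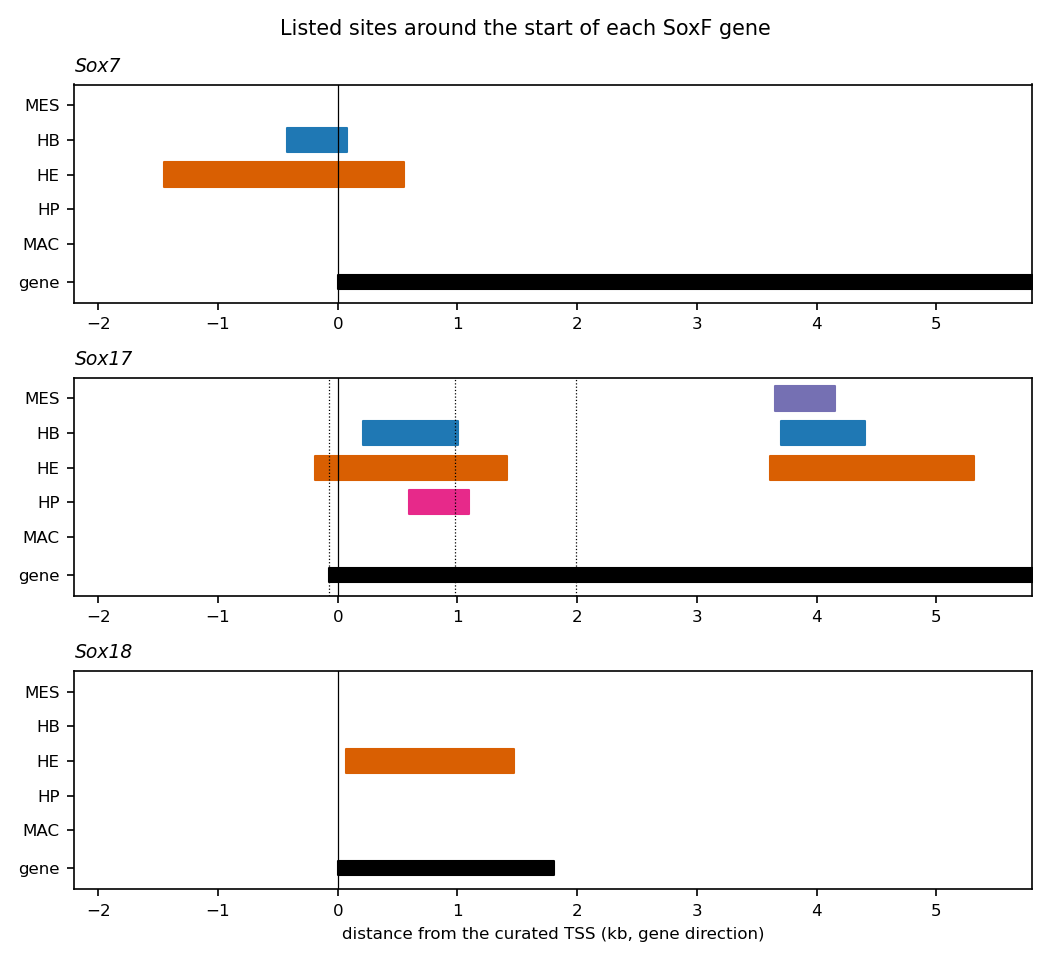
The same sites close to the curated TSS of each gene, on 1 distance scale in kb. The HE bars of Sox7 and Sox17 cover the curated TSS (solid line), the HB and HP bars of Sox17 cover only the predicted TSS at +0.981 kb (dotted), and the HE bar of Sox18 starts 71 bp inside the gene.

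Sox18, a short gene of 1804 bp on the minus strand at chr2:181669837-181671640, had the fewest sites. The HE site, 1400 bp wide (chr2:181670170-181671569), covered most of the gene, both coding exons included, and stopped 71 bp short of the TSS. No other list had a site inside the gene. In MES a site of 300 bp lay at −4 kb, 3921 bp from the HE site, and was narrow for its list (wider than 2.18% of it). The TSS of another gene was nearly as close to it, at 4.66 kb, and which gene this site acts on was not tested. Sox18 has close neighbours, Tcea2 at 8.66 kb and Gm29797 at 14.8 kb, so that only 11.7 kb of sequence was nearer to its TSS than to another, against 63.7 kb for Sox7 and 144 kb for Sox17 (within the 100 kb reach). Within 100 kb of the Sox18 TSS the HE list held 11 sites, of which 10 were nearer to other genes. For Sox7 it was 9 of 13 and for Sox17 1 of 4, so the numbers of sites cannot be compared between the 3 genes as if they had the same room.

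The neighbours had other patterns of promoter sites. Pinx1 beside Sox7 and Mrpl15 beside Sox17 had one in all 5 lists, Tcea2 beside Sox18 in MES, HB and HE, and 4930578I06Rik, Rp1 and Gm29797 in none. None of the 6 neighbours thus shared the promoter pattern of the SoxF gene beside it. The patterns of Sox7, Sox17 and Sox18 were held by only 1.37%, 0.4% and 3.09% of all genes, so this absence says little. The neighbours' numbers of assigned sites were also highest in HE for Pinx1 (1, 3, 6, 1 and 2 from MES to MAC), Mrpl15 (1, 1, 3, 1 and 1) and 4930578I06Rik (0, 0, 1, 0 and 0). A maximum in HE was thus not particular to the SoxF genes.

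At every place that HE shared with another stage, the HE interval contained the other one. Of the member sites, 2 of 3 in MES, 6 of 6 in HB, 3 of 3 in HP and 0 of 4 in MAC overlapped an HE site, against 70.2%, 69.4%, 86.0% and 41.9% of the whole lists. The whole lists include promoter sites, and the 4 MAC sites were all distal. All 11 overlapping sites lay wholly inside the HE site. Among all sites that overlapped an HE site, 77.0% in MES, 63.3% in HB and 79.7% in HP did so. The HE interval was 1.67 to 4 times as wide as the HB site it contained, with a median of 2.17 over 6 pairs, where the median over all 17174 HB pairs was 1.33. In HP the median was 2.29 over 3 pairs against 1.56 over the list, and in MES the 2 ratios were 1.88 and 3.4 against a median of 1.6. Width is a property of the call and not a measure of strength, and whether the depth of the HE library bears on it was not tested.

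**Figure D4:**
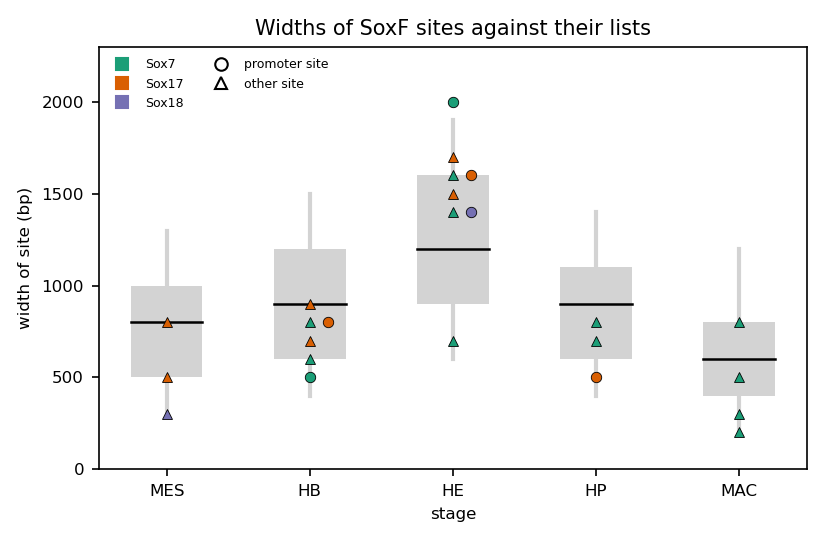
Width in bp of each SoxF site by stage, coloured by gene, circles for promoter sites and triangles for others, over the whole list (black line the median, grey box from the lower to the upper quartile, grey line the range without the narrowest and widest 5% of sites). In HE 7 of the 8 sites lie above the list median of 1200 bp, and in HB 0 of 6 lie above its median of 900 bp.

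Of the 14 merged regions, 8 were listed in HE, against 48.4% of all merged regions, and 5 of them also in HB, against 22.9% listed in both. Regions listed in HE alone numbered 3, 1 at each gene (2 with the deposited intervals merged, none of them at Sox17). This number moved with the settings. At Sox7 it was 0 by nearest gene body, 2 with merging at 250 bp and 3 with sites under the median width of their list dropped, and the last setting gave 2 at Sox17. That setting also dropped the +19.2 kb site of Sox7, so its 3 were other regions, whose HB and HP sites had been dropped. Regions listed in MAC alone numbered 4, all at Sox7. HE alone made up 17.1% of all merged regions and MAC alone 31.0%. The combination of HB, HE and HP held 3 of the 14 SoxF regions and 0.78% of all regions, with 2 at Sox7 and 1 at Sox17. This combination was picked after the values were seen. By nearest gene body the −34.9 kb region was not assigned to Sox7. Of the 14 SoxF regions, 0 were listed in all 5 stages, against 13.2% of all merged regions, and 0 in MAC together with another stage, against 23.3%. Both shares count promoter and distal regions together, and the 4 MAC regions were all distal.

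The base composition and motif letters of the central 500 bp were then read for 13 of the 14 regions, 7 of them listed in HE. In 4 of the 13 regions the sequence was CpG-rich, with at least 50% G and C and a CpG ratio (observed over expected) of at least 0.6, against 18.2% of all merged regions. These were the Sox7 promoter, the MES and HB region and the −74.4 kb region of Sox17, and the HE region of Sox18, whose CpG ratio of 0.96 was the highest of the 13. The 4 MAC regions of Sox7 had G and C shares of 43.8 to 47.2%, the lowest of the 13.

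ETS letters were found in 10 of the 13 regions (76.9%), against 67.9% of all merged regions, and in 5 of the 7 listed in HE (against 69.9% of all HE regions). GATA letters were in 4 regions (30.8%, against 23.0%), and RBPJ letters in 6 (46.2%, against 41.2%). Over the 13 regions these shares were close to the background. SOX letters were in 7 regions (53.8%, against 63.4%), E-box letters in 4 (30.8%, against 53.3%), RUNX letters in 2 (15.4%, against 33.2%) and TEAD letters in 3 (23.1%, against 26.7%). FOX letters were in 0 of 13 regions, against 6.59% of all regions. TEAD letters were in 0 of the 7 regions listed in HE, and 27.2% of all HE regions held them. Of the same 7, RBPJ letters were in 4 (57.1%, against 40.4%) and GATA letters in 2 (28.6%, against 22.8%). SOX letters were in 3 (42.9%, against 59.4%), E-box letters in 2 (28.6%, against 51.2%) and RUNX letters in 1 (14.3%, against 28.8%). With so few regions these shares are descriptions, and a match is not a bound site.

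The letters were unevenly spread among the regions printed above. The −34.9 kb region of Sox7 held 2 ETS, 2 GATA and 1 SOX match. The +19.2 kb region, listed in HE alone, held 3 RBPJ, 2 ETS, 2 SOX, 2 E-box and 1 RUNX match, 10 in all and more than any other of the 13. At −74.4 kb of Sox17 there were 2 SOX, 2 ETS, 1 GATA, 1 E-box and 1 RBPJ match, 7 in all. In the 300 bp printed for that region the GATA letters end at base 139 and the SOX letters start at base 144, counted from 1 at the left end. The HE region of Sox18, over its coding exons and the intron between them, held a single RBPJ match outside the printed stretch, and the CpG-rich Sox7 promoter held none of the letters. RBPJ and TEAD letters can share bases on opposite strands, and overlapping matches were counted one by one, as for the 2 ETS matches that share bases in the MES region of Sox18.

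**Figure D5:**
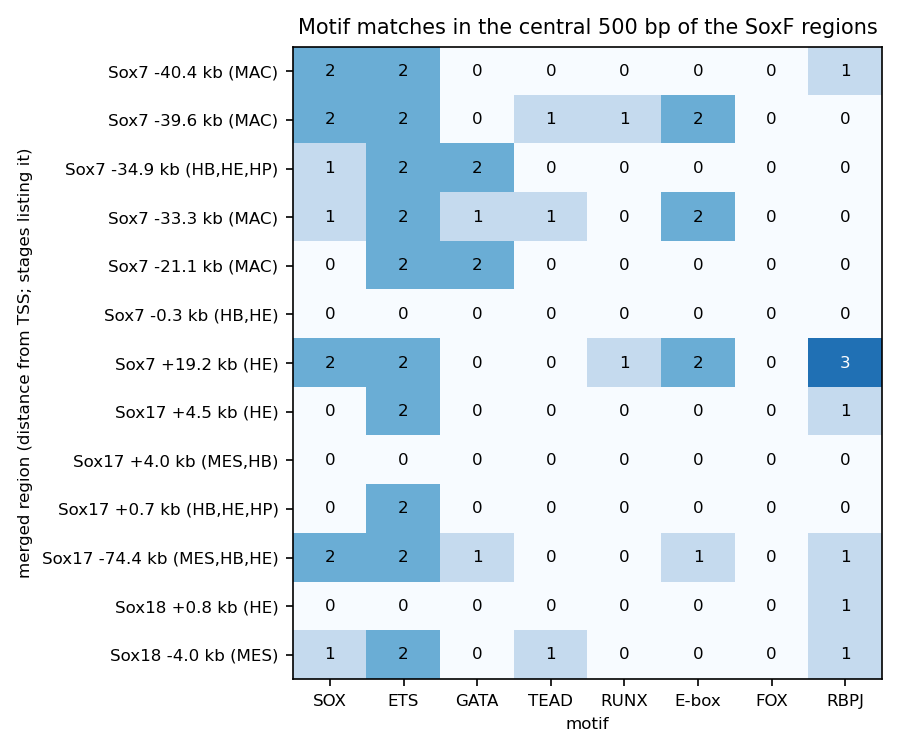
Number of exact matches, both strands, to each motif in the central 500 bp of 13 merged regions, with the distance from the TSS and the stages that list the region. ETS matches appear in 10 rows, FOX matches in none, and the Sox7 row at +19.2 kb has matches to 5 motifs.

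Among 16 SOX genes of the other groups, 12 had a promoter site in HE and 12 in HB, 11 in MES, 7 in HP and 4 in MAC, beside the shares of all genes of 61.7%, 58.9%, 57.2%, 50.1% and 50.2% in that order. Sox21, Sox5 and Sox13 had one in HE and in neither MES nor MAC, as the SoxF genes did, which is 3 of 16 (18.8%) beside 5.20% of all genes. Sox4, Sox6, Sox8 and Sox12 had one in all 5 lists, and Sox3 and Sox10 in none.

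Of 21 genes known to act beside SoxF factors in endothelium and early blood, all 21 had a promoter site in HE, while 16 had one in HB, 14 in MES, 13 in HP and 10 in MAC. These are 100% in HE, 76.2% in HB, 66.7% in MES, 61.9% in HP and 47.6% in MAC, and beside the shares of all genes just given the last 3 lie nearer to the background than those of HE and HB. Upstream regulators (6 genes) had promoter sites at 4, 5, 6, 4 and 3 genes from MES to MAC. The ETS factor gene Etv2, a master regulator of endothelial and blood fate, had one from MES to HP, Erg in HB and HE as Sox7 did, and Fli1 in HE and MAC. The 3 partner genes (Mef2c, Rbpj and Ctnnb1) had them at 2, 3, 3, 2 and 3 genes in the same order. The 6 arterial and Notch genes had them at 5, 5, 6, 5 and 3 genes. The 5 endothelial target genes had them at 2, 2, 5, 1 and 0 genes, and Runx1, the factor that drives the emergence of blood, had one in all 5 lists. Of these, Cdh5 (VE-cadherin), Tek (an angiopoietin receptor) and Vcam1 (an adhesion molecule) had a promoter site in HE by itself, the pattern of Sox18, and so did Notch4 (an endothelial Notch receptor). With Erg these make 5 of 21 genes (23.8%) with one in HE and in neither MES nor MAC, beside 5.20% of all genes. The list was chosen for its role in endothelium with earlier results known, so its counts are a description.

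The genes whose numbers of assigned merged regions were closest to those of a SoxF gene over the 5 stages were found by the summed absolute difference, ties broken by covered length. For Sox17 they were Dok4, Pdzrn4 and Macroh2a2, each with a difference of 0, as had 6 genes in all. For Sox18 they were Tceal1, Pabpc4l and 9130008F23Rik, also at 0, among 69 tied genes. No gene matched Sox7 exactly, and Csnk1e, Sh3tc1 and Miga1 came closest at a difference of 2 regions, among 19 tied genes. The number of ties says that with 5 values per gene the likeness is weak.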

How the data were processed

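DNaseI-seq was analysed in 5 samples, 1 per stage. Per the study's methods, reads were trimmed (CutAdapt), aligned to mm10 (Bowtie) and freed of duplicates (Picard), and the authors then called hypersensitive sites in 100 bp bins (DFilter). The labels also name HOMER, and versions are not given in the sources used here. What was deposited is the start and the end of each site in bp, with no count, height or score beside them, and all widths are multiples of 100 bp.

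Genes and TSS came from RefSeq on GRCm38.p6, the same chromosomes as mm10. Nearest genes were taken by the curated mRNA TSS from the middle of a site, promoter sites by any annotated TSS. Sites were set to 500 bp windows and merged by the overlap the methods state. The study centred its windows on summits, and here the middle of each interval was used, since the lists used give none. Base composition and motifs were read in 13 of the 14 merged regions, and the sequence of the other is not reported here. Assignment and merging were checked on simulated sites. Python 3.11.15, NumPy 2.4.6, SciPy 1.17.1, pysam 0.24.0 and matplotlib 3.10.9 were used. With 1 list per stage no test was made. Depth could not be read from the positions.

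The genes named were the SoxF genes with every site, other SOX genes, genes known beside SoxF factors by role, the direct neighbours, the sorting markers and the 3 genes closest in numbers of merged regions. Members and lists were chosen with earlier results of these data known.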

Additional observations from a re-analysis of the deposited data

How the results depend on the processing

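Under 11 alternatives, 57 of 67 values stayed within 1.5 times the reported ones, and 3 of 3 SoxF genes kept their promoter site in HE under each of those that bear on it. Some of these values could not change, so the tally is no measure of stability. A promoter site stays with its gene under every assignment rule, and a wider promoter reach can only add genes. By nearest gene body, Sox7 had 2 HE sites and 0 HE-only regions, and, in an alternative chosen after seeing the data, 0 MAC sites. With a reach of 50 kb, and with genes of any type, Sox17 had 2 HE sites in place of 3, which is 1.5 times and counted as within. With 250 bp as the overlap for merging, Sox7 had 2 HE-only regions, and with deposited intervals merged, Sox17 had 0. When sites narrower than their list's median were dropped, HE-only regions came to 3 at Sox7 and 2 at Sox17, and promoter sites were listed at 0 genes in HB and 0 in HP. With each list limited to its 17734 widest sites, the length of the shortest, HB had 1 such gene, since the 500 bp site of Sox7 was lost. Both width cuts also dropped the +19.2 kb HE site of Sox7, so the HE-only regions counted there were other ones. A promoter reach of 2 kb gave 1 gene in MES, which was Sox17. The counts of HB and HP thus rest on sites narrow for their lists. Each stage had 1 list (the MAC label names replicates 1 and 2 together), so the spread between repeats is unknown. The lists hold no read depth. The study reports totals of aligned reads in its supplement, and these were not used here.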
